A study of Homo sapiens with 9 samples.

Results

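The transcripts of 35 genes that attach palmitate to proteins, help to attach it or take it off were examined in glioblastoma cells carrying a mutant isocitrate dehydrogenase. They were taken from the deposited count table by gene name, and no threshold on their values was applied. The genes named ZDHHC followed by a number gave 24 palmitoyltransferases. LYPLA1, LYPLA2, LYPLAL1, ABHD10, ABHD17A, ABHD17B, ABHD17C, PPT1 and PPT2 gave 9 depalmitoylating enzymes, and GOLGA7 and SELENOK were taken as accessory proteins. Together they made up 35 of 58735 rows of the table, of which 19951 were protein coding. A filter on low counts passed 31 of them, among 16874 genes tested.

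U87, a human glioblastoma line grown in DMEM with fetal bovine serum, was sequenced as bulk RNA in 3 stably expressing groups of 3 libraries each. One group carried the empty vector PCDH. Another expressed isocitrate dehydrogenase 1 with the R132H mutation (IDH1mt), and the third that protein with a further exchange of cysteine for serine (IDH1mt C269S, here C269S). The series was made to ask how palmitoylation of the mutant enzyme by itself affects gene expression. Introduced wild-type IDH1 was not among the groups, and the labels give neither the number of selected lines per construct nor whether the libraries of a group were separate cultures. An effect of the mutation, of more IDH1, of a selected line and of its culture therefore cannot be told apart. The spread that the p-values rest on is that of the libraries, and it may be technical.

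The libraries held 19108925 to 24803711 counts. IDH1 stood at 112, 102 and 118 CPM (counts scaled to library size, here with edgeR's TMM factors) in PCDH, at 660.2, 678 and 693 CPM in IDH1mt and at 773, 724 and 718 CPM in C269S. The mutant groups were 6.12-fold and 6.68-fold above PCDH, and no difference between them was called in edgeR's test (adjusted p = 0.227), so IDH1 checks the vector label but not which mutant a library held. All 7 mesenchymal glioblastoma markers were above 1 CPM, and their summed level was 22789 to 24013 CPM in PCDH, 22688 to 24738 CPM in IDH1mt and 26697 to 27247 CPM in C269S. The C269S libraries lay above all others. FN1 was the largest part of this sum, and its mean was 14605 CPM in C269S against 10694 CPM in PCDH. CD44 was also called higher in C269S than in PCDH, and CHI3L1 and NES had higher means without a call. Means were lower in C269S for TNC (4459 against 4717 CPM), VIM (2695 against 3012 CPM) and SPARC (1690 against 1774 CPM), none of them called. In IDH1mt against PCDH 3 of the 7 mesenchymal markers (CHI3L1, CD44 and FN1) were called higher and 3 (TNC, SPARC and VIM) lower. Markers of astrocytes and proneural glioma summed to 18.0 to 19.2 CPM in PCDH, 25.2 to 29.8 CPM in IDH1mt and 21.6 to 25.8 CPM in C269S, with AQP4 at 0 counts and 3 of 8 above 1 CPM. Of these 3, PDGFRA rose in IDH1mt from 6.75 ± 1.54 to 15.8 ± 0.922 CPM (SD, n = 3 each), and OLIG2 and GFAP, at log2 differences of -0.17 and 0.20, were not called. Immune markers summed to 8.07 to 10.8 CPM in PCDH, 15.1 to 18.5 CPM in IDH1mt and 10.9 to 13.7 CPM in C269S, with CD3E and MS4A1 at 0 counts and 1 of 7 above 1 CPM. That gene, CSF1R, rose from 8.74 ± 1.34 to 16.1 ± 1.45 CPM in IDH1mt (SD, n = 3 each). Neuron markers summed to 67.4 to 73.1 CPM in PCDH, 71.7 to 82.8 CPM in IDH1mt and 74.7 to 83.3 CPM in C269S. SNAP25 among them was called higher in IDH1mt than in PCDH (log2 fold change 0.26, adjusted p = 0.0242, edgeR). The other 4 were not called. Oligodendrocyte, endothelial and epithelial markers summed to at most 3.37, 9.49 and 4.96 CPM in a library. Between PCDH and IDH1mt, the mesenchymal, neuron, oligodendrocyte and epithelial sums overlapped. The astrocyte and proneural, immune and endothelial sums were higher in IDH1mt without overlap, the endothelial ones at 6.53 to 7.14 CPM in PCDH and 7.66 to 9.49 CPM in IDH1mt. Their part in the differences between groups was not tested. In bulk RNA, a change in the share of a cell type and a change in RNA per cell cannot be told apart.

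Palmitoylation attaches the fatty acid palmitate to cysteines of a protein through a thioester bond, which holds otherwise soluble proteins such as Ras and Src family kinases at membranes and steers the traffic of receptors. Palmitoyltransferases of the DHHC family span the membranes of the endoplasmic reticulum, Golgi and cell surface, take palmitate from palmitoyl-CoA onto the cysteine of their aspartate-histidine-histidine-cysteine motif and pass it on. Thioesterases with a catalytic serine take it off again in the cytosol, in mitochondria or in lysosomes. Removal in the cytosol lets a protein pass through cycles of palmitoylation. EGFR, a receptor often altered in glioblastoma, is itself palmitoylated.

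The catalytic codons of 9 members, and the exchanged codon of IDH1, are shown here to set the members of a family side by side, from GENCODE release 29 transcripts on GRCh38, 5′ to 3′ along the coding strand. In the depalmitoylating enzymes ABHD17C and LYPLA2, capitals mark the codon of the active site serine. In the 7 palmitoyltransferase windows, capitals mark the 4 codons of the DHHC motif, whose cysteine carries the palmitate, and in IDH1 the codon of the cysteine that is changed in C269S. Coordinates are the outer ends of each window, and the windows of ZDHHC5, ZDHHC9, ZDHHC14 and LYPLA2 run across an exon junction.
ABHD17C (chr15:80749532-80749576, plus strand, exon 2): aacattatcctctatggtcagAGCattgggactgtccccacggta
LYPLA2 (chr1:23794110-23794241, plus strand, exons 7 and 8): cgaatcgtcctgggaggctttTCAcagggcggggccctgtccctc
ZDHHC7 (chr16:84979231-84979272, minus strand, exon 5): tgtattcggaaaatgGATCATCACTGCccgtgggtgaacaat
ZDHHC5 (chr11:57688657-57690063, plus strand, exons 4 and 5): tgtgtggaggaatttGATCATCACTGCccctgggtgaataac
ZDHHC9 (chrX:129814761-129823685, minus strand, exons 5 and 6): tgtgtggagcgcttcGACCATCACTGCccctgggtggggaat
ZDHHC14 (chr6:157593140-157628383, plus strand, exons 3 and 4): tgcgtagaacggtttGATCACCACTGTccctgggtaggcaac
ZDHHC6 (chr10:112442309-112442350, minus strand, exon 4): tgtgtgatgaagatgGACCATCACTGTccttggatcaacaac
ZDHHC11 (chr5:847537-847578, minus strand, exon 3): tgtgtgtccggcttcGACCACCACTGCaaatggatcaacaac
ZDHHC11B (chr5:755021-755062, minus strand, exon 3): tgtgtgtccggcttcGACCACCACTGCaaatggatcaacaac
IDH1 (chr2:208242022-208242054, minus strand, exon 7): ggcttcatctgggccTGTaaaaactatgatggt
The DHHC motif occurred once in the protein translated from 23 of the 24 palmitoyltransferase transcripts. The remaining one was ZDHHC13, known as a DQHC enzyme. The codons differ between members, with 10 spellings of the 4 codons in 22 of these genes (ZDHHC2 was not included). The commonest, GACCACCACTGC, stood in 7 of the 22 genes, among them ZDHHC11, ZDHHC11B, ZDHHC8 and ZDHHC12. The windows of ZDHHC11 and ZDHHC11B were identical over all 42 bases and their aligned coding sequences over 97.8%, so their read counts are uncertain.

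Levels between genes are compared here in the deposited FPKM (fragments per kilobase of gene, scaled to library size), which take gene length into account. Of the 31 tested genes, 15 had a mean over the 9 libraries of at least 10 FPKM, 14 lay between 1 and 10 FPKM, and 2 lay below 1 FPKM. The palmitoyltransferases spanned 0.153 to 24.7 FPKM with a median of 7.14 FPKM, and the depalmitoylating enzymes 2.58 to 21.6 FPKM with a median of 10.1 FPKM.

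ZDHHC7, a Golgi enzyme with many substrates, was the palmitoyltransferase with the highest level, at 23.8, 26 and 24.3 FPKM in PCDH, 25, 23.9 and 23.6 FPKM in IDH1mt and 24.6, 25 and 26.4 FPKM in C269S. Its level lay at percentile 90.2 of the genes tested, varied least among the tested members (coefficient of variation 3.88% over the 9 libraries) and overlapped between all groups. ZDHHC5, an enzyme of the cell surface and endosomes, followed at 20.7 ± 1.10 FPKM (SD, n = 9). ZDHHC12, ZDHHC16, ZDHHC20, which palmitoylates EGFR, ZDHHC9, ZDHHC6 and ZDHHC8 formed a further group between 11.6 and 14.2 FPKM. Neighbours in this group were closer than their own spread over the libraries, such as ZDHHC20 at 13.7 ± 1.28 FPKM and ZDHHC9 at 13.7 ± 0.993 FPKM (SD, n = 9).

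Below these lay ZDHHC1, ZDHHC3, the close relative of ZDHHC7, ZDHHC24, ZDHHC2 and ZDHHC18, between 5.81 and 7.62 FPKM. ZDHHC4, ZDHHC13, ZDHHC21, ZDHHC23 and ZDHHC17 followed between 1.31 and 3.10 FPKM. ZDHHC13 and ZDHHC17 are the ankyrin repeat members of the family and are known to bind huntingtin. ZDHHC17 stood at 0.977, 1.29 and 1.42 FPKM in PCDH, 1.44, 1.47 and 1.47 FPKM in IDH1mt and 1.16, 1.48 and 1.07 FPKM in C269S. ZDHHC14, whose coding sequence was 76.0% identical to that of ZDHHC9 where they aligned, stood at 0.965, 1.02 and 0.737 FPKM in PCDH, 0.673, 0.667 and 0.719 FPKM in IDH1mt and 0.912, 0.874 and 0.846 FPKM in C269S.

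ZDHHC11 had the lowest level of the tested members, at 0.203, 0.144 and 0.146 FPKM in PCDH, 0.168, 0.0884 and 0.115 FPKM in IDH1mt and 0.117, 0.217 and 0.177 FPKM in C269S. These values rest on 15 to 30 counts per library, and the 3 groups overlapped. The 4 members that did not pass the filter were all palmitoyltransferases. ZDHHC11B had 18 counts in all, with at most 7 in a library, and ZDHHC19 had 4 counts, in 2 libraries. ZDHHC15 and ZDHHC22 had 0 counts in all 9 libraries, which allows a level of up to 0.121 to 0.157 CPM in a single library (3 counts, for counting error only).

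Both accessory genes were among the higher levels. SELENOK, a selenoprotein of the endoplasmic reticulum that works with ZDHHC6, stood at 19.4, 23 and 19.5 FPKM in PCDH, 21.8, 20 and 20.3 FPKM in IDH1mt and 19.3, 23.1 and 23 FPKM in C269S, with overlapping groups. Its level was 1.49 to 1.94 times that of ZDHHC6 in the same library. GOLGA7, the Golgi partner that ZDHHC9 needs to palmitoylate Ras, stood at 14.6 ± 0.715 FPKM (SD, n = 9).

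Among the depalmitoylating enzymes, LYPLA2 (acyl-protein thioesterase 2 of the cytosol) had the highest level. It stood at 21.7, 23.7 and 20.9 FPKM in PCDH, 23, 19 and 23.4 FPKM in IDH1mt and 20.4, 20.3 and 22.3 FPKM in C269S, with overlapping groups. Its relative LYPLA1 lay at 10.1 ± 0.957 FPKM (SD, n = 9), and the ratio of LYPLA2 to LYPLA1 ranged from 1.78 to 2.56 over the libraries. PPT1, the lysosomal thioesterase lost in infantile neuronal ceroid lipofuscinosis, followed LYPLA2 at 20.1 ± 1.52 FPKM, within their spread. ABHD17A, of the membrane-bound ABHD17 family that acts on N-Ras, and ABHD10, a mitochondrial thioesterase, stood at 12.8 and 12.3 FPKM. ABHD17B, LYPLAL1, ABHD17C and the lysosomal PPT2 lay between 2.58 and 6.02 FPKM.

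**Figure D1:**
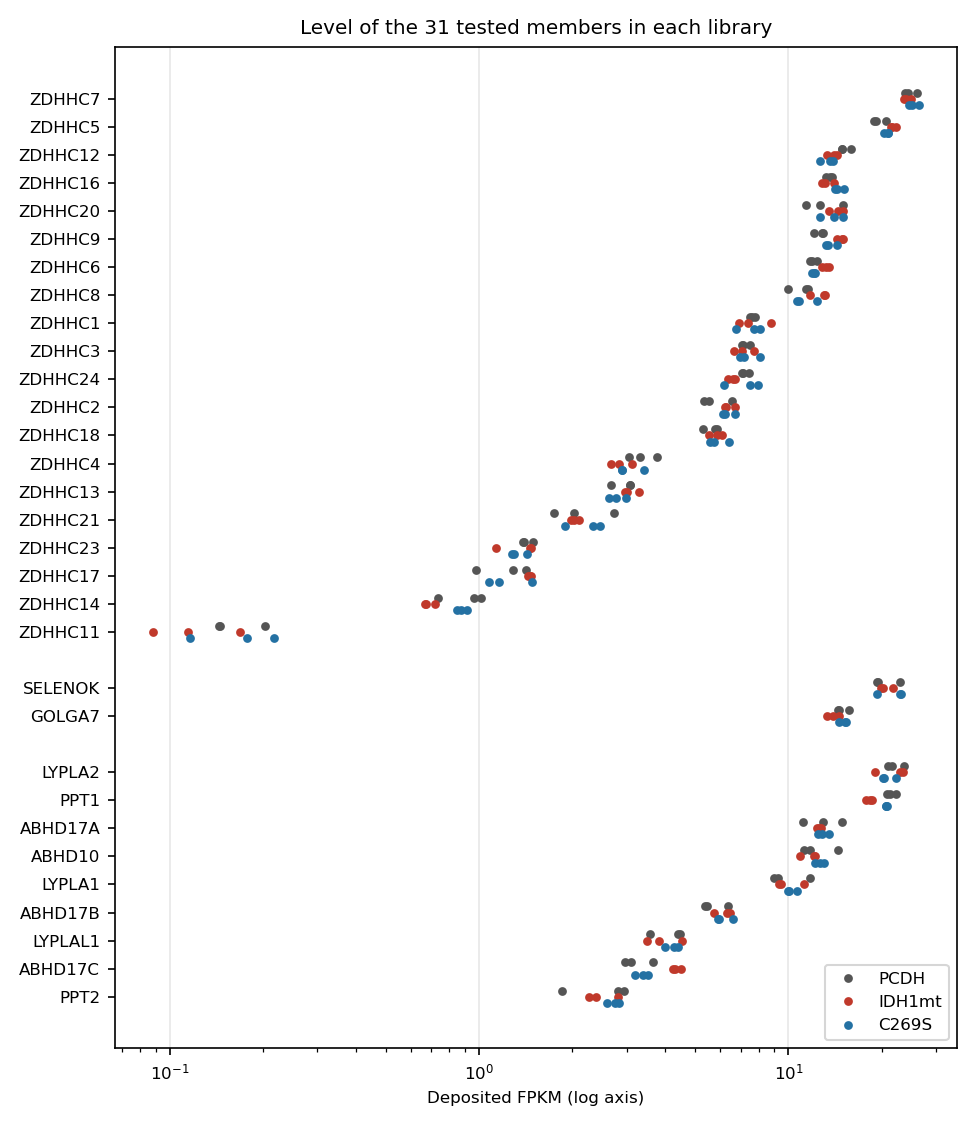
Deposited FPKM (log axis) of the 31 tested genes, 1 point per library, with the palmitoyltransferases at the top, the accessory genes below them and the depalmitoylating enzymes at the bottom. Means run from 0.153 FPKM for ZDHHC11 to 24.7 FPKM for ZDHHC7, and for most genes the points of the 3 groups overlap.

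IDH1mt was compared with PCDH, the group with the R132H mutant with that carrying the vector. ZDHHC9 and ABHD17C rose, PPT1 fell, and 28 of the 31 tested members were not called in edgeR's quasi-likelihood test (adjusted p under 0.05, Benjamini-Hochberg over all genes). Of all genes tested 14.1% were called, 7.18% higher and 6.9% lower, against 3 of 31 members. An unadjusted p under 0.05 was found for 6 of 31 members, beside 26.1% of all genes tested. Of the called genes, 1211 were higher and 1164 lower, and with libraries scaled by size alone 918 and 1691. The members' log2 fold changes ranged from -0.41 to 0.42 with a median of -0.03, beside -0.01 over all genes tested. Their median absolute log2 fold change was 0.104, beside 0.171 over all genes tested. For 28 of 31 members the 95% interval lay within 1.5-fold in either direction, the exceptions being ABHD17C, ZDHHC14 and ZDHHC11.

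Of the 20 palmitoyltransferases tested, 1 rose, none fell and 19 were not called. ZDHHC9 (ENSG00000188706, chrX:129803288-129843909), the Ras palmitoyltransferase, stood at 68.3, 68.5 and 64 CPM in PCDH, 79, 75.7 and 78.6 CPM in IDH1mt and 71.1, 69.7 and 75.4 CPM in C269S. All 3 IDH1mt libraries were above every other library, and the C269S libraries lay between the 2 other groups without overlap. ZDHHC9 was 1.16-fold higher in IDH1mt than in PCDH (log2 fold change 0.22, SE 0.07, 95% interval 0.08 to 0.35, edgeR adjusted p = 0.0282). This call was lost in 7 of 19 alternatives, which were the replicate block, keeping genes with low counts, scaling by library size alone, and leaving out PCDH replicate 3 or any 1 of the IDH1mt libraries (adjusted p up to 0.109).

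Among the other palmitoyltransferases, IDH1mt and PCDH libraries did not overlap for 7 genes that were not called. Counting the called ones, 10 of 31 members did not overlap, beside 29.2% of all genes tested. ZDHHC14 (ENSG00000175048, chr6:157381133-157678146) was nearest to the threshold, at 10.9, 11.4 and 8.25 CPM in PCDH, 7.53, 7.45 and 8.04 CPM in IDH1mt and 10.2, 9.78 and 9.46 CPM in C269S. PCDH replicate 3 lay near the IDH1mt libraries, and the other PCDH libraries and all C269S libraries were higher than it. The log2 difference was -0.41 (SE 0.14, 95% interval -0.70 to -0.12, edgeR adjusted p = 0.0519). It was called without PCDH replicate 3 (log2 fold change -0.54, adjusted p = 0.00664) and with library size alone (-0.46, adjusted p = 0.0285).

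ZDHHC8 and ZDHHC5 are close relatives, with 74.4% identity of aligned coding bases, and neither was called. ZDHHC8 stood at 63.8, 64.7 and 55.6 CPM in PCDH and 73.2, 65.2 and 72.5 CPM in IDH1mt, a log2 difference of 0.20 (adjusted p = 0.0956, edgeR). ZDHHC5 stood at 114, 103 and 105 CPM in PCDH and 117, 121 and 118 CPM in IDH1mt, a log2 difference of 0.15 (adjusted p = 0.109, edgeR). In both genes the lowest IDH1mt library was above the highest PCDH library. ZDHHC6, which palmitoylates calnexin in the endoplasmic reticulum, and ZDHHC17 also lay higher without overlap, with log2 differences of 0.14 (adjusted p = 0.231) and 0.24 (adjusted p = 0.278, edgeR). ZDHHC12 and ZDHHC24 lay lower without overlap, both at -0.14 on the log2 scale (adjusted p = 0.278 and 0.304, edgeR). The remaining 12 palmitoyltransferases overlapped between the groups. Without PCDH replicate 3, ZDHHC20 (log2 fold change 0.24, adjusted p = 0.0162) and ZDHHC2 (0.23, adjusted p = 0.0480), a palmitoyltransferase of CKAP4, were also called higher.

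ZDHHC6 shares 3.84% of its exonic bases with ACSL5 on the other strand, and ACSL5, which makes palmitoyl-CoA, went from 1.2 ± 0.24 CPM in PCDH to 3.29 ± 1.36 CPM in IDH1mt (SD, n = 3 each). Without a stated strand setting, reads from the shared bases cannot be told apart, and their part in the ZDHHC6 value was not tested.

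Neither accessory gene was called. GOLGA7, which had the lower p of the pair, stood at 36.6, 36.1 and 39 CPM in PCDH, 33.2, 34.5 and 36.2 CPM in IDH1mt and 36.2, 37.8 and 38 CPM in C269S. IDH1mt held the lowest values but overlapped with PCDH, and the log2 difference was -0.11 (SE 0.08, adjusted p = 0.436, edgeR). Set against its partner in the same library, the FPKM ratio of GOLGA7 to ZDHHC9 was 1.13, 1.12 and 1.29 in PCDH, 0.890, 0.967 and 0.976 in IDH1mt and 1.08, 1.15 and 1.07 in C269S. The ratio was below 1 in the IDH1mt libraries and above 1 in the other 6. It holds the ZDHHC9 rise itself and was not tested. For SELENOK the 95% interval of the log2 difference between IDH1mt and PCDH was -0.17 to 0.17.

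Of the 9 depalmitoylating enzymes, ABHD17C rose, PPT1 fell and 7 were not called. PPT1 (ENSG00000131238, chr1:40071461-40097727) stood at 108, 109 and 114 CPM in PCDH, 95.3, 93.6 and 90.9 CPM in IDH1mt and 106, 106 and 106 CPM in C269S. Every IDH1mt library lay below every other library, and the C269S libraries lay just under the lowest PCDH library. PPT1 was 1.18-fold lower in IDH1mt than in PCDH (log2 fold change -0.24, SE 0.06, 95% interval -0.36 to -0.12, edgeR adjusted p = 0.00624). The call was kept under all 19 alternatives. PPT1 shares 23.4% of its exonic bases with CAP1, an actin regulator on the other strand, and CAP1 stood at 188 ± 8.97 CPM in PCDH and 191 ± 5.26 CPM in IDH1mt (SD, n = 3 each, log2 difference 0.02, adjusted p = 0.863, edgeR). Reads of the shared bases cannot be told apart without a stated strand setting.

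ABHD17C (ENSG00000136379, chr15:80679684-80755621) stood at 10.9, 11.3 and 13.4 CPM in PCDH, 16.4, 15.6 and 15.5 CPM in IDH1mt and 12.8, 11.6 and 12.4 CPM in C269S. All IDH1mt libraries were above all others, and the C269S libraries fell within the PCDH range. ABHD17C was 1.34-fold higher in IDH1mt than in PCDH (log2 fold change 0.42, SE 0.12, 95% interval 0.18 to 0.66, edgeR adjusted p = 0.0132). The call was lost when PCDH replicate 1, PCDH replicate 2 or IDH1mt replicate 1 was left out (adjusted p up to 0.0742), and kept in the other 16 alternatives. Its relatives ABHD17A and ABHD17B, with 79.7% and 71.0% identity to it over aligned coding bases, had log2 differences of -0.05 and 0.10 and were not called. ABHD17C made up 14, 13.2 and 17.3% of the summed ABHD17 FPKM in the PCDH libraries and 19.7, 18.4 and 18.4% in the IDH1mt libraries. In C269S it made up 15.5, 14.5 and 14.9%. The other 5 enzymes, LYPLA1, LYPLA2, LYPLAL1, ABHD10 and PPT2, had overlapping groups, and the log2 difference farthest from 0 among them was -0.09 for ABHD10. PPT2 shares 49.3% of its exonic bases with the readthrough gene PPT2-EGFL8, so its count is uncertain.

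**Figure D2:**
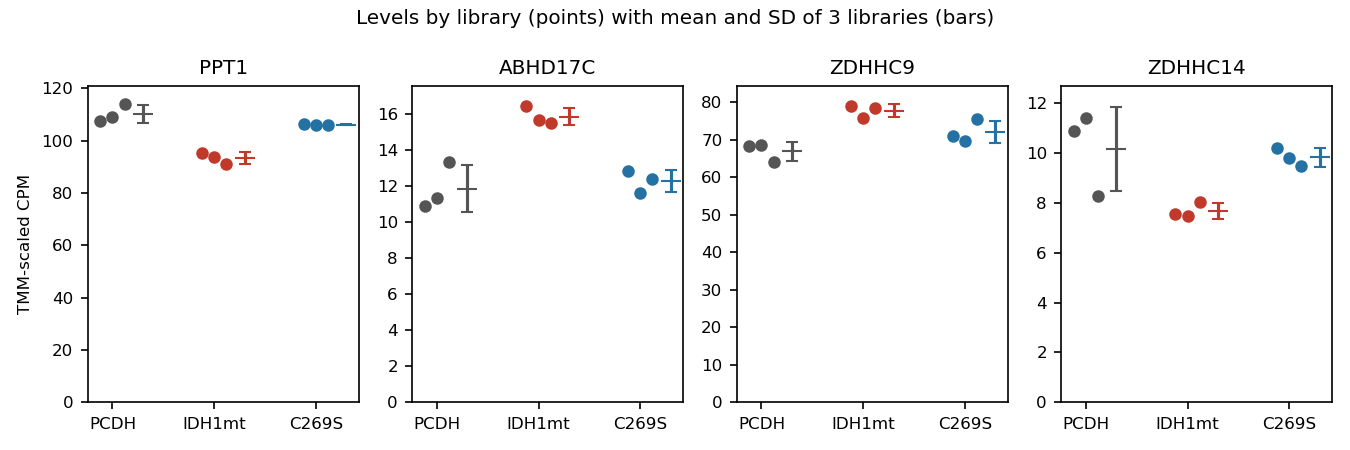
TMM-scaled CPM of PPT1, ABHD17C, ZDHHC9 and ZDHHC14 by group, with a point per library and a bar for the mean and SD of 3 libraries. PPT1 is lowest and ABHD17C and ZDHHC9 are highest in all 3 IDH1mt libraries, and the PCDH library of ZDHHC14 at 8.25 CPM lies near the IDH1mt libraries.

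C269S, the group with the mutant that lacks the cysteine, was compared with PCDH. None of the 31 tested members was called in edgeR's test, 1 had an unadjusted p under 0.05, and DESeq2 and limma on the FPKM called none either. Of all genes tested, 1.42% were called, 0.883% higher and 0.533% lower, and 12% had an unadjusted p under 0.05. The member with the unadjusted p under 0.05 was ZDHHC12, known to act on gephyrin, at 41.9, 39 and 39 CPM in PCDH and 35.6, 33 and 36.3 CPM in C269S. All C269S libraries were lower, and the log2 difference was -0.19 (SE 0.08, 95% interval -0.36 to -0.03, edgeR adjusted p = 0.305).

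The libraries did not overlap for 4 of 31 members (ZDHHC12 and PPT1 lower, ZDHHC9 and ZDHHC16 higher in C269S), beside 15.2% of all genes tested. For the members that changed in IDH1mt, the log2 differences between C269S and PCDH were -0.05 for PPT1 (95% interval -0.18 to 0.07, adjusted p = 0.787), 0.05 for ABHD17C (95% interval -0.20 to 0.29, adjusted p = 0.925) and 0.11 for ZDHHC9 (95% interval -0.03 to 0.24, adjusted p = 0.565, all edgeR). For 30 of 31 members the 95% interval lay within 1.5-fold of PCDH, the exception being ZDHHC11, with an interval of -0.76 to 0.87. The median absolute log2 difference of the members was 0.0544, beside 0.118 over all genes tested.

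C269S was also compared with IDH1mt, the comparison between the mutants with and without the cysteine. It shares its libraries with both comparisons above, so the 3 are not independent. No member was called in edgeR's test, while 4 had an unadjusted p under 0.05 and DESeq2 called 2 of them, PPT1 and ABHD17C. Of all genes tested, 4.9% were called, 2.29% higher and 2.61% lower in C269S, and 16.7% had an unadjusted p under 0.05. The calls were 387 higher and 440 lower, and 523 and 347 with libraries scaled by size alone. PPT1 lay higher in C269S in every library, with a log2 difference of 0.19 (SE 0.06, 95% interval 0.06 to 0.31, edgeR adjusted p = 0.0778). ABHD17C lay lower in every library, with a log2 difference of -0.37 (SE 0.12, 95% interval -0.61 to -0.13, edgeR adjusted p = 0.0623). Both were called in the 6 libraries of this comparison alone (adjusted p = 0.0336 and 0.0301), in DESeq2 (0.0314 and 0.0456) and without PCDH replicate 3 (0.0290 and 0.0313). PPT1 was also called with library size alone (adjusted p = 0.0304).

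ZDHHC14 and ZDHHC8 were the other members with an unadjusted p under 0.05. ZDHHC14 lay higher in C269S by 0.36 on the log2 scale (95% interval 0.06 to 0.65, adjusted p = 0.178, edgeR), with no overlap. ZDHHC8 had a log2 difference of -0.16 (adjusted p = 0.297, edgeR), with overlapping libraries. For ZDHHC9 the log2 difference was -0.11 (95% interval -0.25 to 0.03, adjusted p = 0.454, edgeR). In all, 8 of 31 members did not overlap between C269S and IDH1mt, beside 23.6% of all genes tested. The mean of C269S lay between those of the other groups for 14 of 31 members (45.2%), beside 47.2% of all genes tested.

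**Figure D3:**
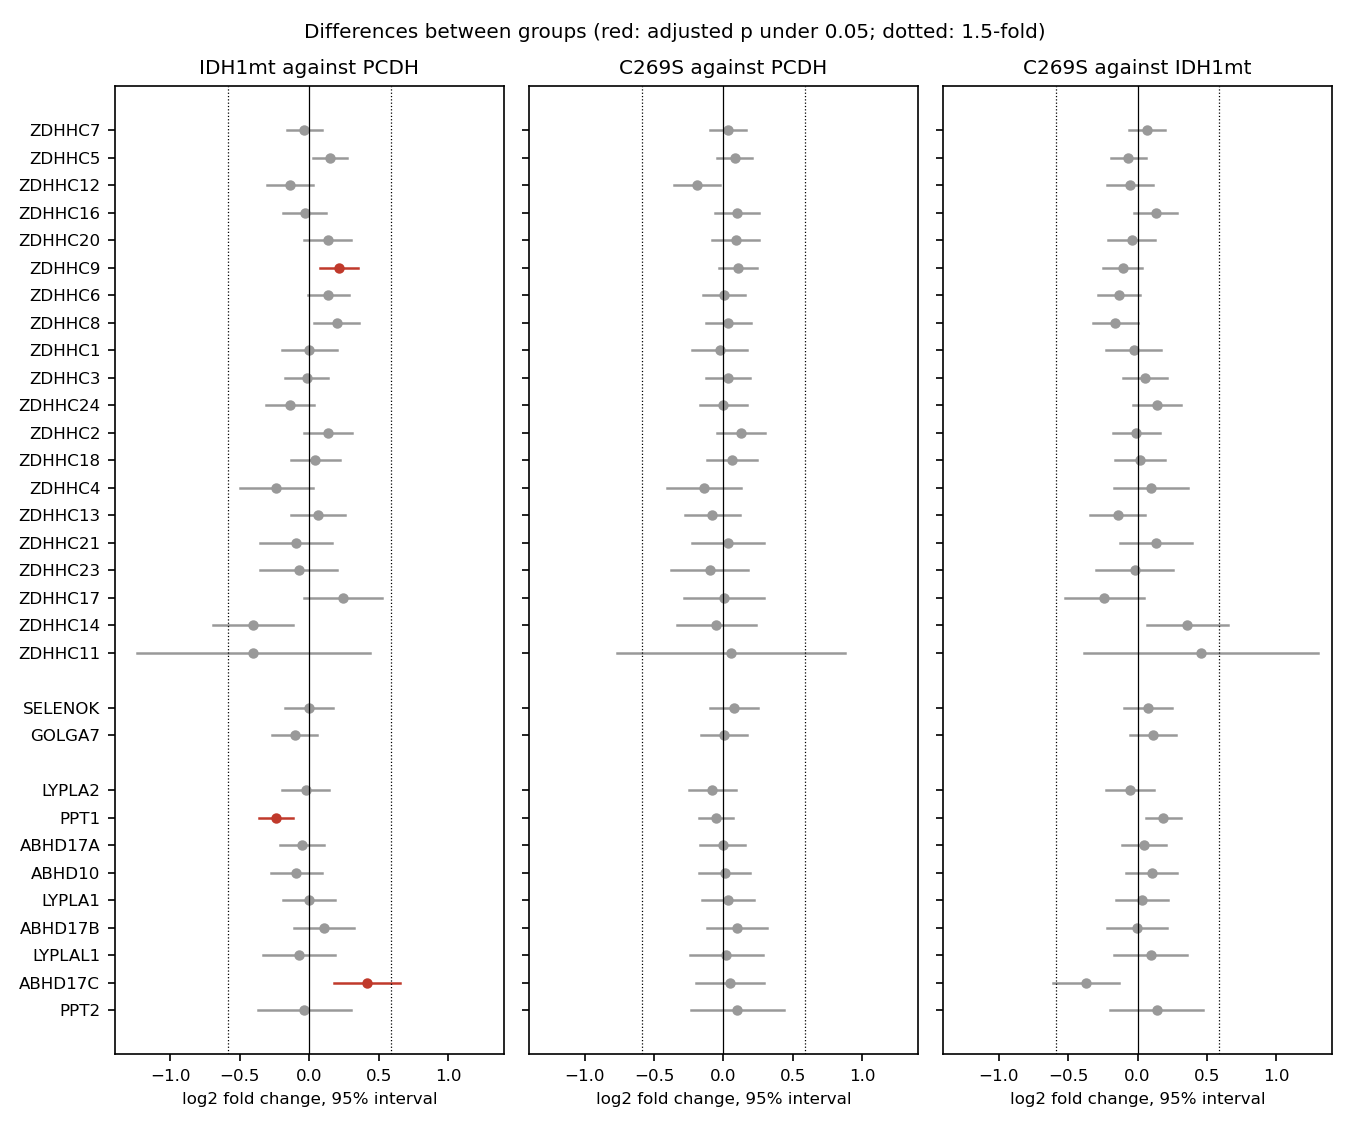
Log2 fold change with its 95% interval for the 31 tested genes in the 3 comparisons, with dotted lines at 1.5-fold and calls at an adjusted p under 0.05 in red. Calls appear only in IDH1mt against PCDH (ZDHHC9, PPT1 and ABHD17C), and the widest interval belongs to ZDHHC11, the gene with the fewest counts.

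Summed FPKM describe how much transcript of each role a library held. The 24 palmitoyltransferases summed to 166, 168 and 168 FPKM in PCDH, 176, 169 and 176 FPKM in IDH1mt and 172, 168 and 173 FPKM in C269S. The 9 depalmitoylating enzymes summed to 90.4, 96.7 and 96.8 FPKM in PCDH, 94.8, 87.8 and 91.3 FPKM in IDH1mt and 93.9, 92.8 and 95 FPKM in C269S. Group means of the first sum were 167 ± 1.13, 173 ± 3.99 and 171 ± 2.62 FPKM, and of the second 94.6 ± 3.68, 91.3 ± 3.49 and 93.9 ± 1.08 FPKM, in the same order (SD, n = 3 each). IDH1mt was highest in the first and lowest in the second by its mean. The sums hold the called members themselves. In the second, PPT1 had a mean of 21.5 FPKM in PCDH and 18.2 FPKM in IDH1mt, and ABHD17C of 3.24 and 4.35 FPKM. In the first, ZDHHC9 had a mean of 12.7 and 14.7 FPKM, in the same order. In the deposited FPKM, the palmitoyltransferase sums of IDH1mt lay above those of PCDH in all 3 libraries, narrowly for IDH1mt replicate 2. The depalmitoylating sums overlapped. The deposited FPKM hold a factor per library of unstated origin, 0.969 to 0.992 in PCDH and 1.01 to 1.02 in IDH1mt. With TMM-scaled counts per kilobase, the palmitoyltransferase sum of PCDH replicate 2 lay just above that of IDH1mt replicate 2, so these groups overlapped.

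The ratio of the sums was 1.84, 1.74 and 1.73 in PCDH, 1.85, 1.92 and 1.92 in IDH1mt and 1.83, 1.81 and 1.83 in C269S. The IDH1mt libraries were the 3 highest of the 9, and PCDH replicate 1 was close below them. The ratio is a description of chosen genes, holds the changes of the called members and was not tested. In every library, 34.0% to 36.3% of the palmitoyltransferase sum came from its 3 highest members.

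**Figure D4:**
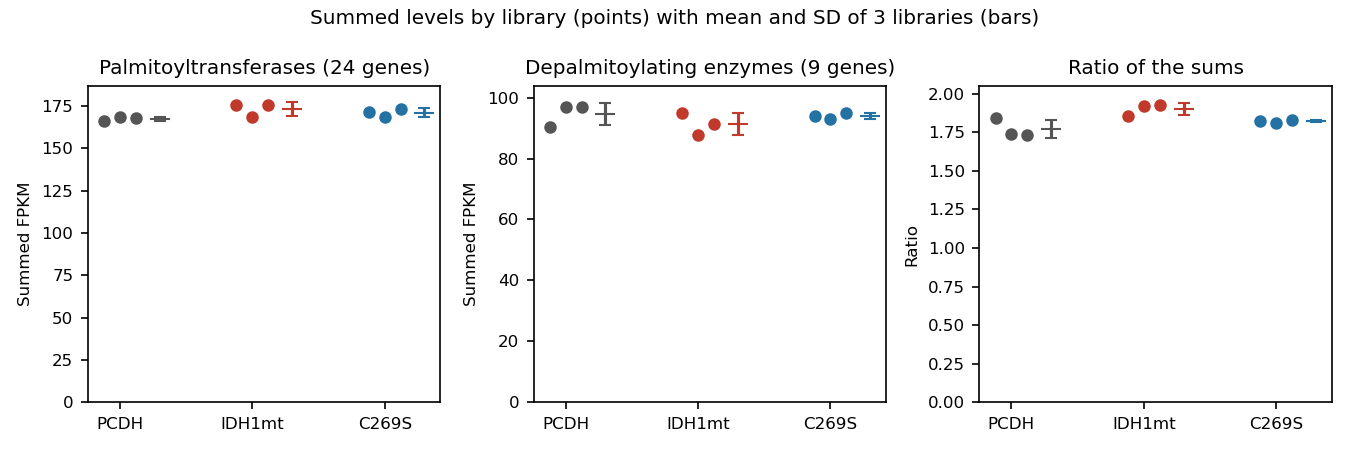
Summed deposited FPKM of the 24 palmitoyltransferases and of the 9 depalmitoylating enzymes and the ratio of the sums, with a point per library and a bar for the mean and SD of 3 libraries. The ratio is 1.77 ± 0.0591 in PCDH, 1.90 ± 0.0403 in IDH1mt and 1.82 ± 0.00767 in C269S, on axes that start at 0.

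The members varied little between the libraries of a group. Their median coefficient of variation was 8.16% in PCDH, 4.95% in IDH1mt and 5.00% in C269S, beside 10.6%, 8.08% and 9.13% over all genes tested. The median tested member, at 7.62 FPKM, stood at percentile 69.4 of the genes tested. These comparisons, and those of the median absolute log2 differences above, were not matched for level. PCDH replicate 3 was the highest or the lowest of the 9 libraries for 11 of 31 members (35.5%), beside 27.2% of all genes tested. It was highest for PPT1, GOLGA7, ABHD10, LYPLA1, ZDHHC21 and ZDHHC23, and lowest for ZDHHC9, ABHD17A, ZDHHC8, ZDHHC18 and PPT2. Without it, 5 members were called in IDH1mt against PCDH in place of 3, and the calls over all genes rose from 2375 to 3048.

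Enzymes outside the named members that also attach or remove fatty acids, and their relatives, gave 22 tested genes. In IDH1mt against PCDH, 1 rose and 3 fell (18.2% called, beside 14.1% of all genes), with a median log2 fold change of -0.03. PORCN, which acylates Wnt proteins, rose (log2 fold change 0.24, adjusted p = 0.0356). ABHD2, a lipid hydrolase (-0.27, adjusted p = 9.5e-04), CPT1C, a relative of the carnitine palmitoyltransferases (-0.32, adjusted p = 0.00748), and ABHD8 (-0.24, adjusted p = 0.0381, all edgeR) fell. In C269S against PCDH none was called by edgeR or DESeq2, and 3 of 22 had an unadjusted p under 0.05, beside 12% of all genes. In C269S against IDH1mt, ABHD2 was higher (0.31, adjusted p = 6.0e-04) and GOLGA7B, the partner of ZDHHC5, was lower (-0.79, adjusted p = 0.0274, edgeR). These made up 9.09% of the list, beside 4.9% of all genes called. The 4 calls of IDH1mt against PCDH became 2 without PCDH replicate 1, PCDH replicate 2, IDH1mt replicate 1 or IDH1mt replicate 2.

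A list on the supply and use of palmitoyl-CoA, which also holds CPT1A, CPT2 and the nuclear receptor PPARD, gave 17 tested genes. Of these, 4 rose and none fell in IDH1mt against PCDH (23.5% called, beside 14.1% of all genes). Their median log2 fold change was 0.05, beside -0.01 over all genes. All 4 genes that rose were long-chain acyl-CoA synthetases, which join fatty acids to coenzyme A. ACSL3 rose from 81.6 ± 7.16 to 105 ± 8.03 CPM (log2 fold change 0.37, adjusted p = 7.0e-04) and ACSL1 from 93.9 ± 3.41 to 116 ± 6.46 CPM (0.30, adjusted p = 0.00133). ACSL4 rose from 251 ± 27.9 to 288 ± 2.36 CPM (0.20, adjusted p = 0.0312), and ACSL5, at the values given above, had a log2 fold change of 1.45 (adjusted p = 0.00134, all edgeR, SD, n = 3 each). In C269S against PCDH, ACSL4 alone was called (0.24, adjusted p = 0.0438), and in C269S against IDH1mt ACSL5 alone, lower (-1.02, adjusted p = 0.0463, edgeR). Each is 5.88% of the list, beside 1.42% and 4.9% of all genes. Leaving out 1 library gave 0 to 3 calls in C269S against PCDH, with 3 without PCDH replicate 3, and 0 or 1 in C269S against IDH1mt.

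Of 78 tested genes whose proteins are known to be palmitoylated on cysteine, 14 rose and 9 fell in IDH1mt against PCDH (29.5% called, beside 14.1% of all genes), with a median log2 fold change of 0.04, beside -0.01 over all genes. CD274, the immune checkpoint ligand PD-L1, fell from 42.1 ± 3.28 to 23.7 ± 0.212 CPM and stood at 40.6 ± 5.02 CPM in C269S (SD, n = 3 each). The transferrin receptor TFRC (log2 fold change 0.40, SE 0.05), the hyaluronan receptor CD44 (0.33, SE 0.05) and the growth factor receptor EGFR (0.40, SE 0.06) rose. In C269S against PCDH, CD44 alone was called (0.21, adjusted p = 0.0124, edgeR), which is 1.28% beside 1.42% of all genes. In C269S against IDH1mt, 4 were higher and 3 lower (8.97% called, beside 4.9% of all genes). CD274 (0.78), the Ras pathway inhibitor SPRY2 (0.38) and the lipid kinase PI4K2A (0.28) were higher, and TFRC (-0.21) was lower, on the log2 scale. The 23 calls of IDH1mt against PCDH became 12 and 14 without PCDH replicates 1 and 2 and 14 or 15 without an IDH1mt library, and the single call of C269S against PCDH became 10 without PCDH replicate 3. The 7 calls of C269S against IDH1mt became 2 to 4 without an IDH1mt library or without C269S replicates 1 or 2. The shares called in this list and in the lists above were not matched for level with all genes tested. These are transcript levels, and palmitoylation itself was not measured.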

How the data were processed

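Total RNA of the 9 libraries was isolated and sequenced as bulk RNA, per the labels' protocols. The deposited count table gives whole reads per gene, with the gene length in bases beside them. HISAT2 2.0.5, featureCounts 1.5.0-p3 and GRCh38 (hg38) are named in the submitters' processing notes. Strand setting and annotation: not given in the sources used here. Every deposited FPKM was the count over gene length and library total, times 1 factor per library (0.969 to 1.02) whose origin the authors' labels do not state. Columns headed Control, mt and CS were assigned to groups from those names.

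Genes were kept by edgeR's filterByExpr (minimum count 10), scaled by TMM and tested in 1 fit of all 9 libraries with a mean per group, with edgeR 4.0.16 (quasi-likelihood F test, two-sided, robust) under R 4.3.3. P-values were adjusted over all 16874 genes by the method of Benjamini and Hochberg, with calls at an adjusted p under 0.05. The SE is the absolute log2 fold change over the square root of F, and 95% intervals use the t quantile of the fit. The scripts were tested on simulated data. Alternatives used DESeq2 1.42.0, limma 3.58.1 on log2 of FPKM plus 1 or 0.1, other filters and scalings, the 6 libraries of a comparison, a replicate block, and each library left out. Coding windows came from GENCODE release 29 transcripts, in which all 35 members have the coordinates of the count table.

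The members, lists and tests were chosen with earlier results of these data known, and the palmitoylation lists support nothing independently. Values of every library are given for members called in a comparison, for the 3 with the highest and lowest mean FPKM, and for the accessory gene with the lowest p. Other library values were chosen after they were seen. Up to 4 called genes are named per list and comparison.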

Additional observations from a re-analysis of the deposited data

How the results depend on the processing

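The rise of ZDHHC9 and ABHD17C and the fall of PPT1 kept their sign under all 19 alternatives. Among the 90 member comparisons that were not called, 121 of 1708 alternative values had the other sign, in 39 comparisons whose log2 difference was at most 0.10 in size. In IDH1mt against PCDH, the count of members higher was 1 in place of 2 with library size alone, with no filter on low counts and with the replicate block, and 0 to 3 with 1 library left out. The count of members lower was 2 in place of 1 with library size alone, and 1 to 2 with 1 library left out. In C269S against PCDH no alternative called a member. In C269S against IDH1mt, the count of members higher was 1 in place of 0 with library size alone, in the 6 libraries alone and with DESeq2, and that of members lower was 1 in place of 0 in the 6 libraries alone and with DESeq2, each 0 to 1 with 1 library left out. The causes were not tested.

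In the list of other acyltransferases and hydrolases, the count of IDH1mt against PCDH was 4, with 2 under the replicate block, 1 in each limma fit and 2 to 4 with 1 library left out. That of C269S against PCDH was 0, and 0 to 1 with 1 library left out. That of C269S against IDH1mt was 2, with 1 in both filtered limma fits, 0 in limma without a filter and 1 to 2 with 1 library left out. In the palmitoyl-CoA list, the count of IDH1mt against PCDH was 4, with 2 in limma on log2(FPKM + 1) and 1 in limma without a filter, and 3 to 4 with 1 library left out. That of C269S against PCDH was 1, with 2 in DESeq2, 0 with library size alone, the 6 libraries alone, the replicate block and each limma fit, and 0 to 3 with 1 library left out. That of C269S against IDH1mt was 1, with 0 under library size alone, the replicate block and each limma fit, and 0 to 1 with 1 library left out. In the list of palmitoylated proteins, the count of IDH1mt against PCDH was 23, with 11 in both filtered limma fits, 7 in limma without a filter and 12 to 29 with 1 library left out. That of C269S against PCDH was 1, with 2 under no filter on low counts, 4 in DESeq2, 0 in the 6 libraries alone and in each limma fit, and 0 to 10 with 1 library left out. That of C269S against IDH1mt was 7, with 4 under the replicate block, 2 in each limma fit and 2 to 9 with 1 library left out. The summed palmitoyltransferase level of PCDH was 167 FPKM and 169 as TMM-scaled counts per kilobase, with which the sums of the PCDH and IDH1mt libraries overlapped. The causes were not tested.

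The replicate numbers did not pair the libraries: deviations of same-numbered libraries correlated between -0.0871 and 0.0558, with 0 of 9 pairs over 0.1. With the replicate block 1987, 172 and 605 genes were called, against 2375, 239 and 827, in the order of the comparisons above. Limma on log2(FPKM + 1) called 1336, 58 and 381 genes. Without PCDH replicate 3, 3048, 903 and 1244 genes were called. Depth limits ZDHHC11, with 15 to 30 counts per library, and the 4 members under the filter, for which no difference was detectable.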
